A study of Mus musculus with 18 samples.

Results

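The transcripts of 9 complement genes were followed across 18 mouse libraries of the RPE, the retinal pigment epithelium, a pigmented sheet that supports the photoreceptors. They were found by symbol in the count table: the C1q chains C1qa, C1qb and C1qc, the central components C3 and C4b, the alternative pathway proteases Cfb and Cfd, and the regulators Cfi and Cd59a. They are 9 of 21859 rows of the table. All genes but Cfd passed the filter on low counts, so 8 of the 15944 genes tested were complement genes of this set.

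The labels put the libraries in 4 groups. Young (7 libraries) and Old (4 libraries) are RPE of young and of aged mice for which the labels name no vector. Old control (3 libraries) is RPE of aged mice given AAV2-tTA, an adeno-associated virus vector that carries the tetracycline-controlled transactivator tTA. Old OSK (4 libraries) is RPE of aged mice given AAV2-tTA;TRE-OSK, in which the promoter that tTA acts on is joined to the reprogramming factors Oct4, Sox2 and Klf4. Both vector groups thus carry tTA. Strain, age, sex, vector dose, the time after the vector and the promoter that drives tTA are not given in the sources used here, nor is it said whether each library came from a separate animal. The p-values below therefore measure the spread between these libraries, which may be in part technical.

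Complement is a cascade of plasma and tissue proteins that marks targets for removal. In the classical pathway C1q, assembled from the A, B and C chains that C1qa, C1qb and C1qc encode, binds a target and, through the proteases C1r and C1s, leads to cleavage of C4 and C2. The classical, lectin and alternative routes meet at C3, whose fragments act on receptors of phagocytes, and the terminal components can then form a pore in a membrane. In the eye, C1q is known mainly as a product of macrophages and microglia, while the RPE itself makes several other components and regulators, and the complement system has been linked to macular degeneration.

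The libraries held 18104828 to 32348136 counts. The first principal component of log2 CPM (CPM, reads of a gene scaled to the TMM-adjusted library total) held 46.5% of the variance, with Old OSK libraries at 45.7 to 96.0. Inside that range lay Old replicate 4 at 73.2 and Old control replicate 2 at 61.8. The names of 6 libraries carry an unexplained letter M: Young replicates 5, 6 and 7, Old control replicates 2 and 3 and Old OSK replicate 4. These 6 had 4040 to 5493 counts on 4 Y-linked genes, the other 12 libraries 93 or fewer, and no Old library is among them. Old against Young thus sets libraries all low in Y-linked counts against Young libraries of both kinds, so age and this split are in part confounded there. The 12 RPE markers were abundant in every library but moved between groups: they summed to 41346 to 66381 CPM in Young, 27848 to 48008 in Old, 21095 to 62894 in Old control and 16266 to 30442 in Old OSK. Tyrp1 and Pmel fell in Old and in Old control against Young by edgeR. In Old OSK against Old control edgeR called 0 of the 12, with a median log2 change of -0.83. At an unadjusted p under 0.05 were 9 of the 12, beside 4194 of all 15944 genes tested. The 8 rod photoreceptor genes summed to 143 to 2816 CPM in Young, 1933 to 6980 in Old, 1477 to 17654 in Old control and 2614 to 14851 in Old OSK, and all 8 estimates were above 0 in Old control against Young (median 2.29, Sag and Cnga1 called). The part of these cell types in the complement results below was not tested.

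The C1q genes lie next to each other on chromosome 4, all on the minus strand, in the GENCODE M21 annotation of GRCm38: C1qb at chr4:136880129-136886187, C1qc at chr4:136889804-136893065 and C1qa at chr4:136895917-136898803. The promoters of C1qb and C1qc are shown because these neighbouring genes moved together in the libraries. Each runs from 250 bases before to 50 bases after the RefSeq start site (GRCm38.p6, minus strand, written 5′ to 3′), at chr4:136886151-136886450 for C1qb and chr4:136892865-136893164 for C1qc. Capitals mark a match to one of 4 motifs searched on both strands.
C1qb promoter: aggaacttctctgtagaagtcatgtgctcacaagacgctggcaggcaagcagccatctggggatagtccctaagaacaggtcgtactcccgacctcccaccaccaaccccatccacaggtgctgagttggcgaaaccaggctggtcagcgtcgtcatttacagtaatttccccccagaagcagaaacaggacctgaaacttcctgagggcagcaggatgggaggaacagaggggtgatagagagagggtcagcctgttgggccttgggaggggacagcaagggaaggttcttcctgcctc
C1qc promoter: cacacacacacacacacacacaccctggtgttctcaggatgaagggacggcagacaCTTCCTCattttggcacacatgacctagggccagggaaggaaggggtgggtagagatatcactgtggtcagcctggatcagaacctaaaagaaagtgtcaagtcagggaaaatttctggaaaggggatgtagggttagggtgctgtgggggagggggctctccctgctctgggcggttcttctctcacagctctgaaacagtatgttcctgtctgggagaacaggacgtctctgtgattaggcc

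The motifs searched were GAGGAAG, the core that the myeloid factor PU.1 prefers, TTCNNNGAA for STAT factors, GAAANNGAA for interferon-regulated elements and GGANTTTCC for NF-kB. The C1qc window held GAGGAAG on the other strand at position -194 from the RefSeq start site, while the C1qb window held none of the 4 motifs. The GENCODE M21 start of C1qc, at chr4:136893065, lies inside this window, upstream of the RefSeq start site. The position thus depends on the annotation. GAGGAAG is present in 13.6% of the 32851 RefSeq windows of the same length, TTCNNNGAA in 8.3%, GAAANNGAA in 8.56% and GGANTTTCC in 1.25%. RefSeq entries were found for 5 of the 9 genes. Of the other 3, C3 and Cfd held no match and Cd59a held GAAANNGAA at position -187. A match of letters is a description of the sequence only.

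The C1q transcripts were low in Young and higher in every old library. C1qa stood at 5.85 to 13.8 CPM in the 7 Young libraries, with a median of 7.24. The Old libraries had 43.5, 21.9, 65.3 and 43.2 CPM, the Old control libraries 44.7, 47.0 and 61.4 CPM, and the Old OSK libraries 49.4, 106.3, 57.0 and 85.4 CPM. The lowest of these 11 old libraries, Old replicate 2, lay above the highest Young library, while the 3 old groups overlapped each other. C1qb, the B chain, was at 4.44 to 9.50 CPM in Young (median 6.05). It was at 30.5, 16.7, 44.8 and 32.7 CPM in Old, at 34.5, 38.8 and 40.1 CPM in Old control and at 37.9, 76.7, 45.8 and 54.8 CPM in Old OSK. As for C1qa, no old library fell into the Young range. C1qc, the C chain, ran from 4.79 to 7.91 CPM in Young (median 6.20). Its values were 30.7, 20.4, 51.6 and 31.9 CPM in Old, 32.4, 31.9 and 45.7 CPM in Old control, and 38.2, 75.9, 49.1 and 62.2 CPM in Old OSK. In all 3 genes Old replicate 2 was the lowest and Old replicate 3 the highest of the Old libraries, and Old OSK replicate 2 was the highest of all 18.

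**Figure D1:**
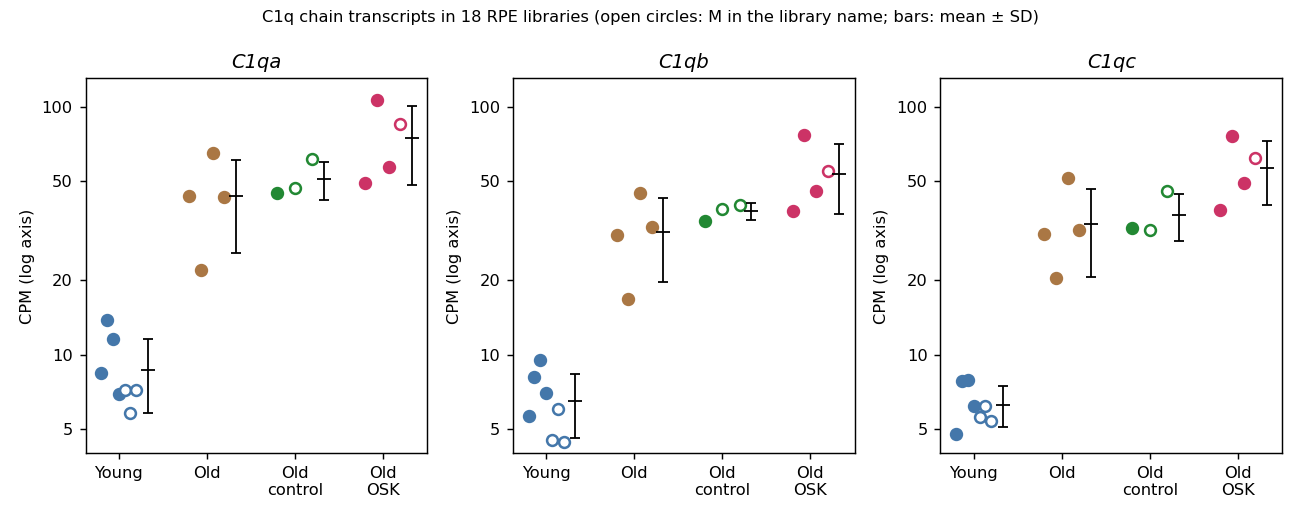
CPM of C1qa, C1qb and C1qc on a log axis, with 1 circle per library in the 4 groups, open where the library name carries M, and bars for the mean ± SD. Young libraries lie at or below 13.8 CPM and all other libraries at or above 16.7 CPM.

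The group means of C1qa were 8.71 ± 2.87 CPM in Young (SD, n = 7), 43.5 ± 17.7 in Old (n = 4), 51.0 ± 9.04 in Old control (n = 3) and 74.5 ± 26.2 in Old OSK (n = 4). In Old against Young, all 3 chains rose: by 2.32 ± 0.28 (SE) on the log2 scale for C1qa (4.98-fold, edgeR adjusted p = 1.35e-04), by 2.26 ± 0.25 for C1qb (adjusted p = 6.09e-05) and by 2.42 ± 0.22 for C1qc (adjusted p = 9.36e-06). Of all genes tested, 5.4% were called higher in this comparison. The 3 C1q genes were the only members called among the 8 tested, whose median log2 fold change was 0.78 beside -0.00 over all genes. The C1q genes also rose in Old control against Young, where 4.58% of all genes were called higher, by 2.55 ± 0.29 for C1qa (edgeR adjusted p = 9.73e-05), 2.54 ± 0.26 for C1qb (3.05e-05) and 2.54 ± 0.24 for C1qc (1.35e-05). Both comparisons use the same Young libraries and are given side by side. In bulk RNA, more cells of a type and more RNA per cell cannot be told apart.

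Without the 6 M libraries the changes in Old against Young were 2.09 for C1qa (edgeR adjusted p = 0.0193), 2.04 for C1qb (0.0114) and 2.33 for C1qc (0.00613). In Old control against Young the non-M libraries, with 1 control library that is assumed to vary like the other groups, gave 2.13, 2.19 and 2.28 for the 3 chains (adjusted p = 0.0642, 0.0394 and 0.0344), and the M libraries alone gave 2.99, 2.96 and 2.74 (0.0489, 0.0489 and 0.0606).

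The chains kept similar proportions in all groups. Counts of C1qa were 0.967 to 1.69 times those of C1qb over the 18 libraries, with medians of 1.49 in Young, 1.37 in Old, 1.29 in Old control and 1.35 in Old OSK. Counts of C1qc were 0.823 to 1.24 times those of C1qb. After centring log2 CPM over the 18 libraries, the root mean square difference was 0.22 between C1qa and C1qb, 0.21 between C1qa and C1qc and 0.18 between C1qb and C1qc, whereas it was 0.75 between C1qa and C4b, 1.09 between C1qa and C3 and 1.32 between C1qa and Cd59a. These are descriptions over libraries that share groups.

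Old OSK libraries held a higher mean level of each C1q chain than Old control libraries, but none of the 3 differences passed the test. The log2 change was 0.55 for C1qa (95% interval -0.18 to 1.27, edgeR adjusted p = 0.333), 0.51 for C1qb (-0.14 to 1.15, adjusted p = 0.307) and 0.62 for C1qc (0.04 to 1.20, adjusted p = 0.167). In Old OSK against Old control 0.408% of all genes were called higher, and 0 of the 8 complement genes were called in either direction by edgeR. At an unadjusted p under 0.05 was 1 of the 8 (C1qc), beside 4194 of all 15944 genes tested. DESeq2 also called 0. In Old control against Old the C1q changes were 0.23, 0.28 and 0.12 for C1qa, C1qb and C1qc. There 0% of all genes were called higher, and edgeR and DESeq2 each called 0 members. C4b and Cfi were at an unadjusted p under 0.05, beside 596 of all 15944 genes tested.

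Whether the age difference was larger than the OSK difference was tested directly, between comparisons that share no library. The log2 difference Old minus Young exceeded the log2 difference Old OSK minus Old control by 1.80 ± 0.35 (SE) for C1qc, which was called (edgeR adjusted p = 0.0326). It exceeded it by 1.77 for C1qa (adjusted p = 0.111) and by 1.75 for C1qb (adjusted p = 0.0676), which were not called. C1qc was the only member called of 8, beside 0.144% of all genes called higher. Its call held in 8 of the 18 fits that left out 1 library each (edgeR adjusted p 0.0164 to 0.0898). It was lost without Young replicate 1, 4, 5 or 6, Old replicate 1 or 3, Old control replicate 1 or 3, or Old OSK replicate 1 or 3. It was also lost when the M libraries were left out (edgeR adjusted p = 0.140).

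C3, the component on which all activation routes converge, differed far less than C1q. It lies at chr17:57203970-57228136 on the minus strand. Young libraries had 30.8 to 49.3 CPM of C3, with a median of 38.1. Old libraries had 41.5, 27.2, 52.1 and 62.0 CPM, Old control libraries 56.3, 64.5 and 44.7 CPM, and Old OSK libraries 68.4, 110.1, 72.0 and 66.2 CPM. Old and Old control overlapped Young, while the lowest Old OSK library lay just above the highest Old control library (66.2 against 64.5 CPM). The change was 0.24 ± 0.20 on the log2 scale in Old against Young (edgeR adjusted p = 0.470), 0.51 ± 0.22 in Old control against Young (0.172) and 0.52 ± 0.25 in Old OSK against Old control (0.198). None passed the test. Without Old OSK replicate 2, the highest library, the last value was 0.32.

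C4b encodes the C4 that the classical and lectin pathways cleave. It lies at chr17:34728380-34743882 on the minus strand, close to its near-identical neighbour C4a, so reads could have been shared or lost between them. Young libraries had 28.3 to 65.0 CPM (median 56.8) and Old libraries 99.1, 77.3, 82.1 and 93.1 CPM. Old control libraries spread over 67.1, 154.7 and 314.6 CPM, and Old OSK libraries over 185.3, 348.8, 294.3 and 231.6 CPM. Every old library was above every Young library, and Old control spanned from below the Old range into the Old OSK range. C4b rose in Old control against Young by 1.80 ± 0.32 on the log2 scale (edgeR adjusted p = 0.00433). In Old against Young its change was 0.78 ± 0.30 (adjusted p = 0.0992), and in Old OSK against Old control it was 0.57 ± 0.38 (95% interval -0.23 to 1.36, adjusted p = 0.361). When only the Young and Old libraries were fitted, the Old against Young change of 0.80 was called (adjusted p = 0.0261).

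Among the groups with M libraries, C4b was higher in them only in Old control. The Young M libraries had 28.3 to 56.8 CPM and the other Young libraries 43.0 to 65.0 CPM. The Old OSK M library had 231.6 CPM, inside the 185.3 to 348.8 CPM of that group's other libraries. In Old control, the 1 library without M had 67.1 CPM and the M libraries 154.7 and 314.6 CPM. Against Young libraries of the same kind, the change was 0.22 without M (edgeR adjusted p = 0.817) and 2.44 with M (adjusted p = 0.248). With M as a covariate it was 1.80 (adjusted p = 0.0161). Leaving out each library in turn gave 1.11 to 2.19, with the lowest value without Old control replicate 3, and the call held in all 10 fits. For Old OSK against Old control, the non-M libraries alone gave 2.04 (edgeR adjusted p = 0.0277), the M covariate gave 0.57 (adjusted p = 0.511), and leaving out 1 library gave 0.18 (without Old control replicate 1) to 1.26 (without Old control replicate 3). What the letter M stands for is not given in the sources used here, though all M libraries and no others had high Y-linked counts. The part of M in the result was not tested beyond these fits.

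**Figure D2:**
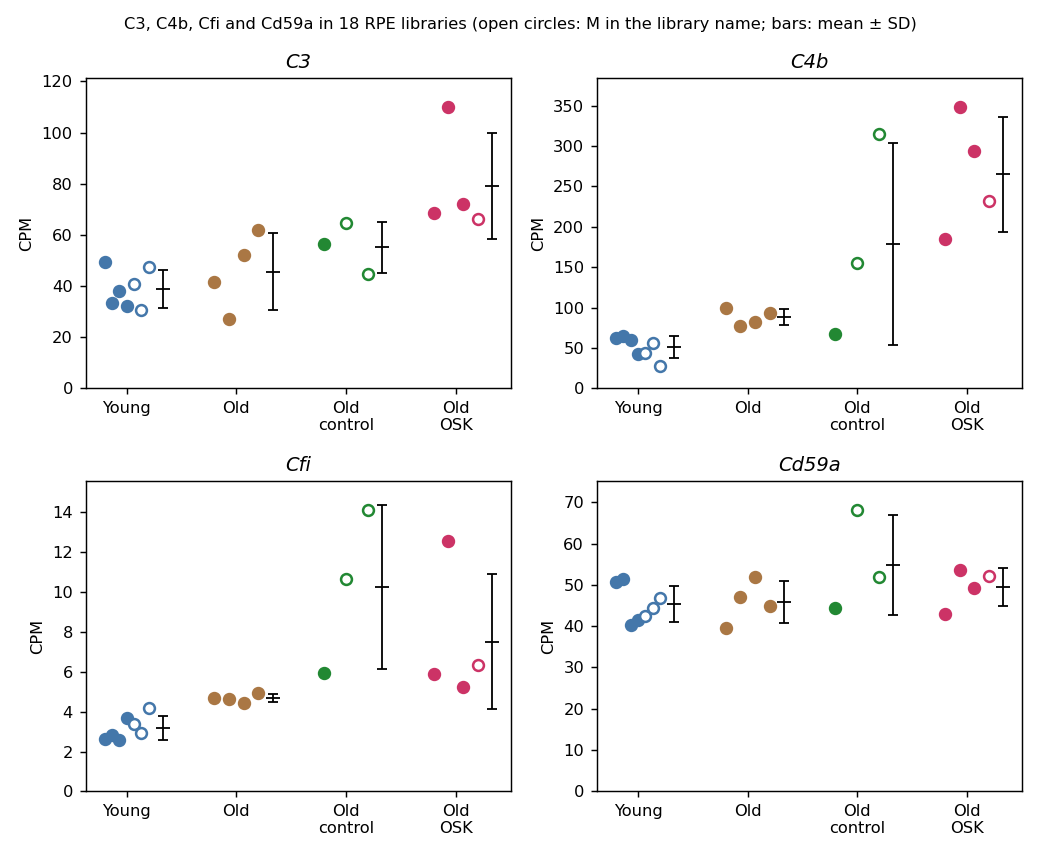
CPM of C3, C4b, Cfi and Cd59a on linear axes from 0, with 1 circle per library, open where the library name carries M, and bars for the mean ± SD. C4b in Old control spreads from 67.1 to 314.6 CPM, and Cd59a stays between 39.6 and 68.2 CPM in all 18 libraries.

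The alternative pathway proteases were barely detected. Cfb, which encodes factor B, the catalytic part of the alternative C3 convertase, had 0 to 16 counts per library. Its means were 0.109 CPM in Young, 0.194 in Old, 0.409 in Old control and 0.317 in Old OSK. Young replicates 6 and 7 had 0 Cfb counts, which allows up to 0.150 and 0.169 CPM. Cfb was not called in any comparison; its log2 change was 1.82 in Old control against Young (95% interval 0.16 to 3.48, edgeR adjusted p = 0.168). Cfb lies at chr17:34856374-34862518, and 79.5% of its 2825 exon bases are shared in the annotation with the read-through gene Gm20547 on the same strand. Gm20547 had 1 count in all 18 libraries together. Reads in shared exons may have been dropped as ambiguous, so the low Cfb counts do not show how much Cfb RNA was present. Cfd, which encodes factor D, the protease that cleaves factor B, is an abundant adipocyte product and had 0 to 14 counts per library. The 1 Young library with 0 Cfd counts allows up to 0.169 CPM. Of the 7 listed adipocyte genes, which include Cfd, Cidec and Lep were at 0 in some libraries of each group. Adipoq was at 0 in some of each group but Old control. The 7 genes summed to 0.899 to 2.81 CPM in Young, 3.19 to 4.57 in Old, 2.42 to 6.76 in Old control and 4.82 to 7.01 in Old OSK. Of the 3 tested, Fabp4 was called higher by edgeR in Old and in Old control against Young. Of all genes, 5.4% and 4.58% were called higher in these comparisons.

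Cfi encodes factor I, the serine protease that cuts C3b and C4b into inactive fragments with the help of cofactors. It lies at chr3:129835884-129875332 on the plus strand. Young libraries had 2.57 to 4.16 CPM of Cfi (median 2.95) and Old libraries 4.69, 4.65, 4.44 and 4.93 CPM. Old control libraries had 5.94, 10.7 and 14.1 CPM, and Old OSK libraries 5.91, 12.6, 5.25 and 6.33 CPM. The Young, Old and Old control ranges did not overlap each other, while Old OSK overlapped Old control. Cfi rose in Old control against Young by 1.69 ± 0.26 on the log2 scale (edgeR adjusted p = 0.00178), so that 5 of the 8 members tested were called higher in that comparison. In Old against Young the change was 0.57 ± 0.25 (adjusted p = 0.142; 0.59 and called, adjusted p = 0.0444, when only those groups were fitted). Old control against Old gave 1.13 ± 0.30 (edgeR adjusted p = 0.900), and Old OSK against Old control gave -0.45 ± 0.30 (adjusted p = 0.368).

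In Young the M libraries had 2.95 to 4.16 CPM of Cfi and the others 2.57 to 3.68 CPM. The Old OSK M library had 6.33 CPM and the others of that group 5.25 to 12.6 CPM. As with C4b, the higher Cfi values of Old control were those of its M libraries, at 10.7 and 14.1 CPM, beside 1 library without M. The change against Young was 1.02 without M (edgeR adjusted p = 0.286), 1.81 within M (adjusted p = 0.248) and 1.59 with M as a covariate (adjusted p = 0.00500). The call held in all 10 fits that left out 1 library (1.39 to 1.97). In Old OSK against Old control the sign of Cfi turned to 0.41 without the M libraries.

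Cd59a encodes a membrane-anchored inhibitor that keeps the terminal complex from forming on the cell's own surface. It varied least among the 8 members tested. Young libraries had 40.4 to 51.4 CPM (median 44.5), Old libraries 39.6, 47.0, 51.9 and 44.9 CPM, Old control libraries 44.5, 68.2 and 51.8 CPM, and Old OSK libraries 42.9, 53.5, 49.4 and 52.1 CPM. All 4 groups overlapped. The change was 0.02 in Old against Young (95% interval -0.22 to 0.25, edgeR adjusted p = 0.944), 0.27 in Old control against Young (0.02 to 0.53, adjusted p = 0.180) and -0.15 in Old OSK against Old control (-0.44 to 0.14, adjusted p = 0.535). Its paralogue Cd59b, with which it can exchange reads, had 1.04 to 2.90 CPM.

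**Figure D3:**
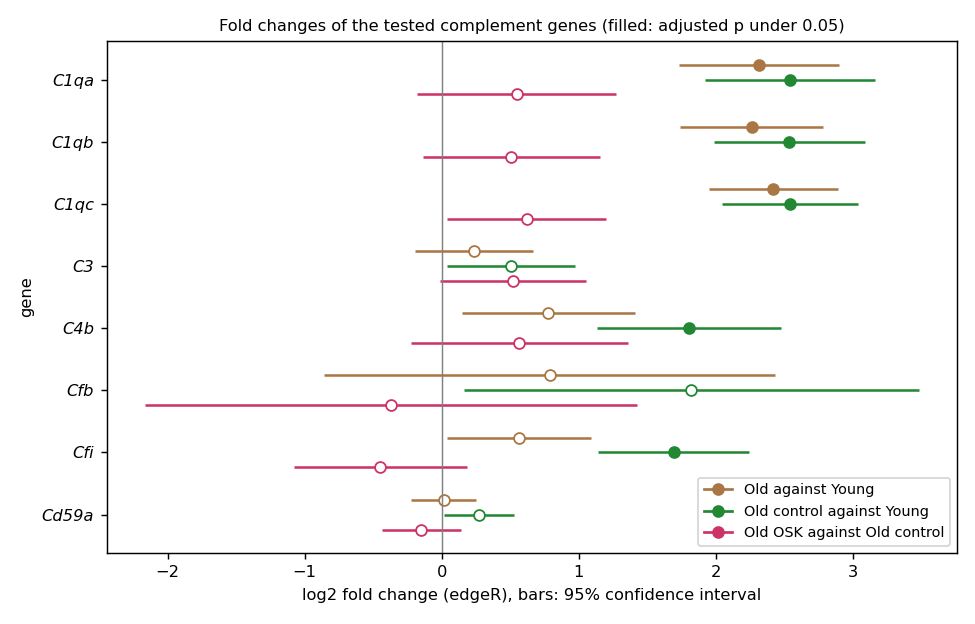
Log2 fold changes of the 8 tested complement genes in 3 comparisons, with points for the edgeR estimate, filled where the adjusted p is under 0.05, and bars for the 95% interval. Only the C1q genes are filled for Old against Young, C4b and Cfi join them for Old control against Young, and no point is filled for Old OSK against Old control.

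C1q moved apart from the other complement genes within the same libraries. The log2 ratio of C1qa to C3 averaged -2.20 in Young and -0.11 in Old, a difference of 2.09 (two-sided exact permutation p = 0.00606, the smallest this design can give; 0.0162 after Benjamini-Hochberg adjustment over the 8 ratios compared). The difference was 1.45 for C1qa to C4b (adjusted exact p = 0.0162), 1.69 for C1qa to Cfi (adjusted exact p = 0.0222) and 2.26 for C1qa to Cd59a (adjusted exact p = 0.0162). Without the M libraries the ratio to Cfi lost its call (1.35, adjusted exact p = 0.0571). The ratio of C1qa to C3 in Old control against Young again differed by 2.09 and that to Cd59a by 2.34 (adjusted exact p = 0.0222 each). The ratio of C1qa to C4b differed by 1.01 (adjusted exact p = 0.0571) and that to Cfi by 0.97 (adjusted exact p = 0.100), neither past the threshold. With 1 Old control library left out, the difference was 1.80 to 2.26 for C1qa to C3 and 2.17 to 2.56 for C1qa to Cd59a. At 2 against 7 libraries the smallest two-sided exact p is 0.0556, so these fits could not be called.

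Levels of different genes were compared per kilobase of merged exon. In Young, Cd59a was highest at 25.1 ± 2.44 CPM per kb (SD), followed by C4b at 8.99 ± 2.34, C1qa at 8.37 ± 2.76, C3 at 7.55 ± 1.43 and C1qb at 5.95 ± 1.72, which lay within 1 SD of their neighbours in the order. C1qc at 3.25 ± 0.61 and Cfi at 1.43 ± 0.27 CPM per kb were lower. In Old, C1qa led at 41.8 ± 17.1 CPM per kb, ahead of C1qb at 28.7 ± 10.6, Cd59a at 25.3 ± 2.83 and C1qc at 17.4 ± 6.74, with C4b at 15.4 ± 1.75 and C3 at 8.88 ± 2.90. Neighbours from C1qa to Cd59a, and C1qc and C4b, lay within 1 SD of each other there. In Old control the levels were 49.1 for C1qa, 34.8 for C1qb, 31.4 for C4b, 30.3 for Cd59a, 19.0 for C1qc, 10.7 for C3 and 4.61 for Cfi, and C1qb, C4b and Cd59a did not differ beyond their spread. In Old OSK, C1qa was at 71.7, C1qb at 49.4, C4b at 46.5, C1qc at 29.2, Cd59a at 27.3, C3 at 15.4 and Cfi at 3.38 CPM per kb. In Old OSK, C1qa, C1qb and C4b, and C1qc and Cd59a, lay within 1 SD of their neighbours. These SDs are between libraries. Within libraries, C1qa counts were 1.31 to 1.46 times those of C1qb in Old, 1.21 to 1.53 times in Old control and 1.25 to 1.56 times in Old OSK. The merged exons of C1qa and C1qb are 1.04 and 1.088 kb long.

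Of 46 further genes of the complement system, 45 were matched to a row (C4a was not analysed here) and 37 were tested, and the calls fell mostly on receptors of phagocytes. In Old against Young 5 of the 37 rose and none fell, all 5 among the 9 receptors tested, beside 5.4% of all genes called higher. The median log2 change of the 37 was 0.23. The integrin chains Itgax and Itgb2, which pair into a receptor for the C3 fragment iC3b, rose by 2.97 (edgeR adjusted p = 3.85e-06) and 1.80 (adjusted p = 2.09e-05). The anaphylatoxin receptors rose by 1.72 for C3ar1 (edgeR adjusted p = 0.00159), 1.603 for C5ar1 (0.0190) and 2.05 for C5ar2 (0.0281), at mean levels in Old of 4.65, 0.966 and 0.749 CPM. The count was 3 without Old replicate 4, 3 at a mean of at least 50 counts and 9 by DESeq2. All genes called numbered 393, 1099 and 2452 in these fits, beside 1524 in the main fit. The minimum of 50 counts also left C5ar1 and C5ar2 untested. Among the same 37, 5 rose and none fell in Old control against Young, with a median of 0.30, beside 4.58% of all genes called higher. The 5 were Itgax (3.07), Itgb2 (2.01), C3ar1 (2.09), and the C1 proteases C1ra (0.88 ± 0.16, edgeR adjusted p = 0.00607) and C1s1 (0.70 ± 0.18, adjusted p = 0.0292). C1r activates C1s, which cleaves C4 and C2 once C1q has bound. edgeR called 0 of the 7 lectin pathway genes, 5 terminal components and 12 further regulators tested in either comparison. At an unadjusted p under 0.05 there were 2 regulators and 1 lectin pathway gene in Old against Young and 3 regulators in Old control against Young. Of all 15944 genes tested, 4619 and 3777 were under it in these 2 comparisons.

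In Old OSK against Old control edgeR called 0 of the 37, with a median of 0.11 and 8 at an unadjusted p under 0.05. Of all 15944 genes tested, 4194 were at an unadjusted p under 0.05 in that comparison. C1s1 stood at 18.7, 15.7 and 14.4 CPM in Old control and at 23.2, 33.7, 29.6 and 23.1 CPM in Old OSK, groups that did not overlap. Its log2 difference of 0.75 had an edgeR adjusted p of 0.0720. C1ra stood at 12.8, 13.0 and 19.1 CPM in Old control and at 17.2, 28.1, 31.2 and 23.97 CPM in Old OSK, groups that overlapped, with a log2 difference of 0.74 (adjusted p = 0.0656). DESeq2 called 4 of the list, all higher: C1ra, C1s1, Serping1 and Cd55, beside 1640 of all genes, 999 of them higher. With the replicate numbers as a block, 2 regulators were called, Serping1 (1.24, edgeR adjusted p = 0.0445) and Cd55 (2.22, adjusted p = 0.0471), which encodes decay-accelerating factor. All genes called with the block numbered 461. The same libraries without the block gave 3 calls (Cr1l, Cd55 and Itgam), beside 990 of all genes. In the non-M libraries, with 1 Old control library, the change was 1.93 for Serping1 and 2.33 for Susd4. Without Old control replicate 2 the edgeR count was 4 (Serping1, C5ar1 and Susd4 higher, Clu lower), beside 2881 of all genes called. Without Old OSK replicate 4 it was 2 (C1ra and C1s1), beside 1738 of all genes. Without Old OSK replicate 1 it was 1 (C1ra), beside 52 of all genes. Leaving out Old replicate 4 and Old control replicate 2 together gave 7, beside 3729 of all genes. Cd55, Cr1l, Itgam, Susd4 and Clu are named here after their values were seen.

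Most of the listed markers of macrophages and microglia moved with C1q. Of 16 listed genes all were tested and none was at 0 in any library. By edgeR 12 rose in Old against Young as in Old control against Young, where 5.4% and 4.58% of all genes were called higher. Csf1r (-0.34), Mrc1 (-0.34), Tmem119 (0.68) and Ptprc (0.79) were not called in Old against Young. Nor were they in Old control against Young (-0.35, 0.03, 0.65 and 0.999 in that order). In Old OSK against Old control edgeR called 0, with 2 at an unadjusted p under 0.05, beside 4194 of all 15944 genes. The sum of the 16 genes was 495 to 692 CPM in Young, 713 to 1212 in Old, 869 to 1131 in Old control and 770 to 962 in Old OSK. Csf1r alone made up most of it in Young, at 401 to 620 CPM, and was at 136 to 227 CPM in Old OSK (log2 change against Old control -0.97, edgeR adjusted p = 0.0856). Without Csf1r, a choice made after seeing its values, the other 15 genes summed to 72.6 to 98.2 CPM in Young, 330 to 762 in Old, 410 to 749 in Old control and 585 to 736 in Old OSK. Set against the full list of 16, the summed C1q genes equalled 2.46 to 5.85% in Young, 7.58 to 15.1% in Old, 9.87 to 16.9% in Old control and 15.7 to 33.6% in Old OSK, with no old library in the Young range. Set against the 15 genes without Csf1r, they equalled 19.8 to 30.8% in Young, 17.9 to 23.5% in Old, 15.7 to 35.9% in Old control and 21.4 to 40.8% in Old OSK, ranges that overlapped. The share thus depended on whether Csf1r was counted. The part of these cells in the C1q result was not tested.

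**Figure D4:**
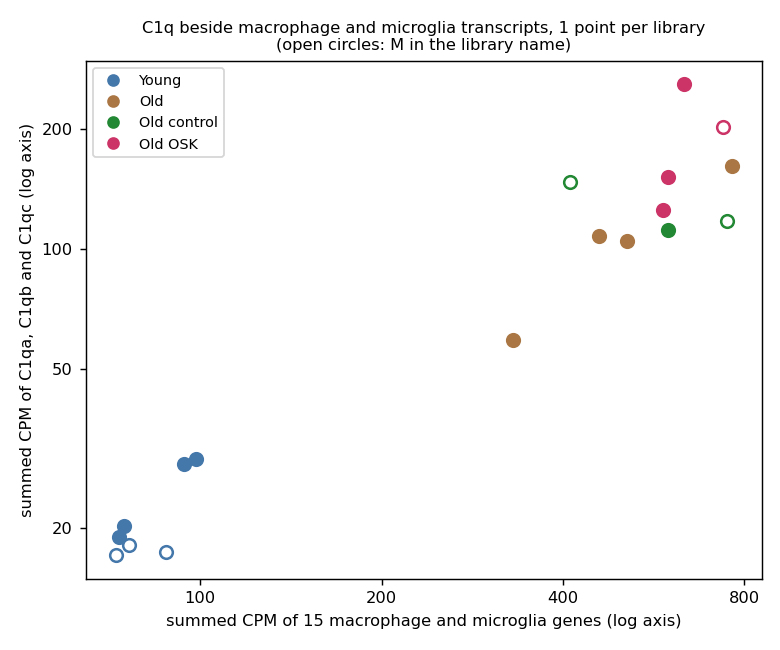
Summed CPM of C1qa, C1qb and C1qc against the summed CPM of 15 macrophage and microglia genes (Csf1r left out), both on log axes, with 1 circle per library coloured by group and open where the library name carries M. The 7 Young libraries lie at 72.6 to 98.2 CPM on the horizontal axis and the 11 old libraries at 330 CPM or more.

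Profile likeness was measured as the root mean square difference of centred log2 CPM over the 18 libraries among 13045 genes, leaving the other members aside. The genes most like C1qa (SD 1.43 over libraries) were Mpeg1 (0.34), Trem2 (0.34), Tyrobp (0.36), Ctss (0.39) and Ly86 (0.39). Mpeg1 encodes the pore protein perforin-2 of phagocytes, Trem2 and Tyrobp a receptor and its signalling adaptor in myeloid cells, and Ctss the lysosomal protease cathepsin S. Trem2, Tyrobp and Ctss were also on the marker list above. Those nearest to C3 (SD 0.52) were Ass1 (0.26), Skap2 (0.28), Rrp15 (0.28), Pdcd5 (0.29) and Thoc5 (0.29). The C4b profile (SD 1.08) was closest to Sulf2 (0.31), Il3ra (0.44), Serping1 (0.45), Fcgr1 (0.46) and Cebpd (0.46).

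Serping1, the inhibitor of C1r and C1s, is the 1 gene of the wider complement list among these neighbours. Its libraries had 10.5 to 44.2 CPM in Young, 39.2, 25.6, 37.7 and 39.1 CPM in Old, 27.5, 62.4 and 47.9 CPM in Old control, and 78.9, 129.1, 107.3 and 80.4 CPM in Old OSK. Every Old OSK library was above every other library. The log2 difference of Old OSK from Old control was 1.11 ± 0.36 (95% interval 0.35 to 1.86), which did not pass the test (edgeR adjusted p = 0.0908), but did with the block and by DESeq2 as given above.

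Interferon-stimulated genes were counted beside C4b, C3 and Cfb, which interferons are known to induce. All 16 listed were tested. In Old against Young 12 rose, with a median log2 change of 1.23, and in Old control against Young 2 rose (Ifit1 and Ifi27), with a median of 0.67. Of all genes tested, 5.4% and 4.58% were called higher in these 2 comparisons. In Old OSK against Old control edgeR called 0 (12 at an unadjusted p under 0.05, beside 4194 of all 15944 genes), and all 16 estimates were above 0, with a median of 1.17. For Old control against Old edgeR called 0 (1 at an unadjusted p under 0.05, beside 596 of all genes), and 0 of 16 estimates were above 0, with a median of -0.59. In that comparison the estimates of C4b (1.02), C3 (0.27) and Cfb (1.04) were above 0 and not called (edgeR adjusted p = 0.900, 0.905 and 0.903), and C4b was at -0.39 without the M libraries. The difference of these genes from the list was not tested.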

How the data were processed

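The deposited table holds raw counts per gene for 18 mouse RPE libraries. Per the labels' protocols, polyA RNA went through SMART-Seq full-length amplification and Nextera XT library preparation. Reads were PCR-amplified without molecular identifiers, so limits for 0 counts (3 counts) cover counting error only. The submitters' processing notes name STAR 2.7.1a, featureCounts 1.6.2 and the builds GRCm38/mm10 and GRCh38/hg38 with no role; annotation, strand setting and treatment of multimapping reads are not given in the sources used here. Positions and exon lengths are from GENCODE M21 (GRCm38).

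The 9 genes, all gene lists and the tests were chosen with earlier results of these data known. Every member is named; of other complement genes, those called in a comparison are named, besides the 5 genes nearest to C1qa, C3 and C4b.

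Counts were filtered with filterByExpr (minimum count 10, minimum total 15), scaled by TMM and fitted as 4 group means over all 18 libraries with the quasi-likelihood test of edgeR 4.0.16 (R 4.3.3). P-values were adjusted by Benjamini-Hochberg over 15944 genes, and a gene was called at an adjusted p under 0.05. CPM are TMM-scaled, and log2 CPM for principal components and likeness used a prior count of 2. The fit was tested on simulated data. Adjusted p-values below come from edgeR unless said otherwise. C1qa ratios used raw counts, in which the scaling of a library cancels, and exact permutation of libraries.

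No replicates were merged, since each pair of a group differed beyond sampling noise (lowest chi-square per gene 19.1, r 0.928 to 0.983). For the numbers 1, 2 and 3, the deviations from group means of the Old OSK and the Old control library of that number had r = 0.103, 0.421 and 0.339, all above 0.1. No label says what the numbers mark, so the main fit used no pairing. An alternative fit took the numbers as a block. The replicate block changed no member's call in that comparison.

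Alternatives were DESeq2 1.42.0, edgeR with its size factors, omission of the low-count filter, a minimum mean of 50 counts, the compared groups alone, M as a covariate, non-M libraries, the replicate block and leaving out each library. Fits without Old replicate 4 and Old control replicate 2, fits of M libraries alone and alternatives for the C1qa ratios were chosen after seeing the data. Some genes are not reported here.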

Additional observations from a re-analysis of the deposited data

Results flagged for a closer look

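Old OSK replicate 2 stood apart from the other 3 Old OSK libraries in 3 of the 9 complement genes. C3 was at 110.1 CPM there, beside 66.2 to 72.0 CPM in the others. Cfi was at 12.6 CPM, beside 5.25 to 6.33 CPM. Cfd was at 0.582 CPM, beside 0.186 to 0.242 CPM, on 14 counts or fewer per library. Chance marks about 1 in 20 groups of this size, and 3 of 48 groups checked were marked. The same library had the highest C1qa, C1qb, C1qc and C4b values of all 18.

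The difference Old minus Young was larger than the difference Old OSK minus Old control for 3 genes of the complement lists, by an edgeR test of that difference. It was larger by 1.80 on the log2 scale for C1qc (adjusted p = 0.0326), by 2.67 for Itgax (adjusted p = 0.00368) and by 1.57 for Itgb2 (adjusted p = 0.0203). The lists held 8 members and 37 other genes tested, and 0.144% of all genes were called higher. Of the listed macrophage and microglia genes, Lyz2 (3.43), Trem2 (2.43), Ctss (2.42), Tyrobp (2.51) and Laptm5 (1.63) were called higher in the same test. The rest of that list were not called.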

How the results depend on the processing

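In Old against Young 3 members (the C1q genes) were called in all 11 fits that left out 1 library (range 3 to 3), beside 393 to 2140 of all genes. The count was 5 when only the 2 groups were fitted, which added C4b and Cfi, beside 1701 of all genes. It was 0 with the replicate block on libraries with shared numbers. In Old control against Young it was 5 in each fit without 1 library, 2 in non-M libraries, 2 in M libraries, 3 in libraries with shared numbers, not blocked, and 0 with the replicate block on them. Equally numbered libraries did not deviate together there (r -0.23 to 0.16) or in Old against Young (r -0.19 to 0.14), and the block called 0 of all genes in Old against Young, beside 191 without the block in the same libraries. In Old OSK against Old control the count was 1 (C4b) in non-M libraries and 0 with the replicate block, in which 461 of all genes were called, beside 990 without the block in the same libraries and 65 higher and 51 lower in all 18 libraries. The count of members with an age difference above the OSK difference was 0 to 3 when 1 library was left out and 3 by DESeq2. Of all genes, 11 to 47 were called higher when 1 library was left out and 92 by DESeq2. The causes were not tested.

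Signs turned for several estimates, not all of them small. In non-M libraries these were Cd59a (-0.00621 in Old against Young, -0.0487 in Old control against Young, 0.125 in Old OSK against Old control, -0.0425 in Old control against Old, -0.132 for the age minus OSK difference), Cfi (0.412 in Old OSK against Old control), and, in Old control against Old, C1qc (-0.0540), C4b (-0.388), Itgax (-0.174) and Itgb2 (-0.0288). The age minus OSK difference of C4b was -1.43 there, beside 0.21 in all 18 libraries. In all 18 libraries C4b was 1.02 in Old control against Old, and Cfi was -0.45 in Old OSK against Old control. Without Old replicate 4 and Old control replicate 2, Cd59a was 0.00944 in Old OSK against Old control, Itgax -0.125 and Itgb2 -0.0551 in Old control against Old, and C5ar1 -0.157 for the age minus OSK difference. C5ar2 in Old OSK against Old control was -0.0783 with M as a covariate, and Cd59a in Old against Young was -0.00324 in libraries with shared numbers. With 1 library left out, ranges crossing 0 were, in Old OSK against Old control, -0.78 to 0.10 for Cfb, -0.279 to 0.00884 for Cd59a, -0.10 to 0.38 for C3ar1 and -0.25 to 0.47 for C5ar2. In Old control against Old they were -0.0653 to 0.407 for C1qc and -0.0784 to 0.269 for Itgax, in Old against Young -0.0498 to 0.0799 for Cd59a, and for the age minus OSK difference -0.48 to 0.60 for C4b and -0.16 to 0.35 for C5ar1.

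At 0 to 16 counts, Cfb and Cfd cannot show moderate differences at this depth.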
